A study of Mus musculus with 7 samples.

Results

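The antiviral interferon-stimulated genes described here are Isg15, Ifit1, Ifit2, Ifit3, Ifih1, Ddx58, Dhx58, Oasl2, Rtp4 and Usp18, chosen by name as ISG15, IFIT, RNA-sensor and OAS-like genes and their regulators. All 10 were among the 23329 gene symbols of the count table. The tested group was wild-type (WT) Beta-TC6 cells given IL1B, the cytokine interleukin-1 beta (3 libraries), and the reference was WT Beta-TC6 cells given vehicle (4 libraries). Beta-TC6 is a mouse line that grew out of an insulinoma and still makes insulin. Every library came from cells pulsed with forskolin, an activator of adenylyl cyclase, to synchronise them. The labels used here give neither a dose nor a duration for IL1B. The model is 1 tumour-derived line in culture, with none of the immune cells that surround beta cells in an islet.

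Type I interferons are secreted proteins made when a cell senses viral nucleic acid. They bind the receptor IFNAR1-IFNAR2, the kinases JAK1 and TYK2 then signal to ISGF3, a factor that holds STAT2 and IRF9 and switches on genes that carry an interferon-stimulated response element (ISRE). IL-1 signals through another receptor to NF-kB, a different set of transcription factors. Comparing IL1B with vehicle therefore asks whether the cytokine is followed by the transcript pattern of a type I interferon response in these cells.

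Promoters were read to show which of these genes carry the letters of an ISRE near their start. Of the 10 genes, 7 had an entry in RefSeq's promoter table (GRCm38.p6), which holds 250 bases before to 50 after each start; Dhx58, Rtp4 and Usp18 were not in it. The ISRE core was searched on both strands as GAAA, then 2 bases of any kind, then GAAA, the GAS core, the gamma-activated sequence, as TTCNNNGAA, and the kB consensus of NF-kB by that name. Capitals mark matches, and each stretch is on the gene's strand, 5′ to 3′. Isg15 is shown for its 3 overlapping ISRE cores, at chr4:156200819-156200918, minus strand.
Isg15: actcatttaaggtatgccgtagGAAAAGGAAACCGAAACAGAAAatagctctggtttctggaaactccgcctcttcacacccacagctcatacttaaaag
Ifit1 is shown because it carries 2 ISRE cores, at chr19:34640769-34640888, plus strand.
Ifit1: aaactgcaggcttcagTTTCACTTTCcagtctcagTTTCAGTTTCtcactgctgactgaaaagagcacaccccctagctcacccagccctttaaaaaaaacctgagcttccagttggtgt
Ddx58 had no match before its start and 1 ISRE core just after it, within chr4:40239805-40239833, minus strand, and Ifih1 likewise had 1, within chr2:62646206-62646233, minus strand.
Ddx58: cctgaggcagTTTCGATTTCctatggcca
Ifih1: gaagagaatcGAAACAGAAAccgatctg
Cxcl10, a chemokine gene outside the list that rose with IL1B, is also shown, at chr5:92348979-92349119, minus strand, with 1 ISRE core followed by 2 kB matches.
Cxcl10: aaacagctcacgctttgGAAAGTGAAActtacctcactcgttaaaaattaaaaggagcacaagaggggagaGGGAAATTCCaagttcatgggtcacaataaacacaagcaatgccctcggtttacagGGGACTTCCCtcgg

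An ISRE core was present in 5 of the 7 genes (Isg15, Ifit1, Ifit3, Ifih1 and Ddx58), against 3.99% of the 27025 genes in the promoter table. A GAS core was present in 1, Ifit2, against 9.55% of genes, and the kB consensus in none, against 5.14%. A match is a description of letters, not of a bound site, and the windows say nothing about more distant enhancers. Outside the list, only Irf1, Cxcl10 and Nfkbia were read gene by gene, and all of them rose with IL1B. Whether a kB match goes with a rise under IL1B was not tested.

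Total counts ran from 6007723 to 6969745 in IL1B libraries and from 5335607 to 7513934 in vehicle libraries. Levels are given as CPM, the count of a gene per 1000000 over all tested genes, with TMM scaling. Within the groups, the second IL1B and the second vehicle library stood apart: their chi-square per degree of freedom against libraries of the same group was 2.87 to 4.87, against 1.52 to 1.69 among the others. The deviation of the second vehicle library from its group mean also correlated across genes with transcript length (Spearman rho -0.55, against 0.22 to 0.30 in the other vehicle libraries). Deviations from a shared mean are tied, so the other vehicle libraries are not an independent reference. In the IL1B libraries rho was -0.020, 0.018 and -0.0065. These are descriptions over genes, which are not replicates. Beta-cell markers summed to 36500 to 37700 CPM with IL1B and 33300 to 38700 CPM with vehicle, while 3 of the 9, Pdx1, Mafa and Neurod1, fell. Of 11 leukocyte markers, Tyrobp was at 0 in every library, Ptprc had 9 counts over the IL1B and 8 over the vehicle libraries, and the sum was 6.99 to 8.10 CPM against 3.90 to 5.48 CPM. Without Cd74 (48 against 5 counts; named after its values were seen) the sum was 4.39 to 5.39 CPM with IL1B and 3.34 to 5.48 CPM with vehicle. The endothelial marker Pecam1 had 41 counts with IL1B and 17 with vehicle, and the PP-cell hormone gene Ppy 4 counts with IL1B and 33 with vehicle. Neither passed the filter, and neither overlapped between groups. Of the other markers below the filter, Cd74, Itgam (5 counts with IL1B, 0 with vehicle) and Col3a1 (0 and 8) did not overlap either. Among tested genes, 21.0% did not overlap in either direction. The sums were 5.39 to 7.65 CPM with IL1B and 4.83 to 8.46 CPM with vehicle over 6 stromal and endothelial markers, and 530 to 584 CPM against 567 to 629 CPM over 3 other islet hormone genes. The part of these markers in the results below was not tested. In bulk RNA, a change in the number of expressing cells and a change in RNA per cell cannot be told apart.

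IL1B raised 2 of the 10 genes, Ddx58 and Rtp4, by 2.97-fold and 2.08-fold. Ifit1, Ifit2 and Usp18 did not pass the test, nor did the sensors Ifih1 and Dhx58 or the OAS-like gene Oasl2. Isg15 and Ifit3 stayed below the filter on low counts and were not tested. The test was edgeR's quasi-likelihood F test over the whole table with Benjamini-Hochberg adjustment and a threshold of 0.05. Among the 10, 8 passed the filter on low counts and were tested: 2 rose and none fell, where 7.76% of the 12480 tested genes rose (968) and 3.25% fell (406). In either direction 11.0% of tested genes passed. With scaling to total counts, 844 genes rose (6.76%) and 556 fell (4.46%). DESeq2 also gave 2 higher and 0 lower, where it called 6.67% of genes higher and 2.23% lower, and so did limma-voom, with 7.69% and 3.09%. No gene of the list was lower at an unadjusted edgeR p of 0.05, against 9.62% of tested genes. Both genes that rose did so by at least 2-fold, as did 1.97% of tested genes. The median log2 fold change over the 8 tested genes was 0.19, against -0.0087 over all tested genes, and 0.14 without Ifit1, which passed the filter through its IL1B libraries only. All IL1B libraries lay above all vehicle libraries for 2 of the 10 genes, as for 12.1% of tested genes, and for the other 8 the groups overlapped; groups that did not overlap in either direction made up 21.0% of tested genes.

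**Figure D1:**
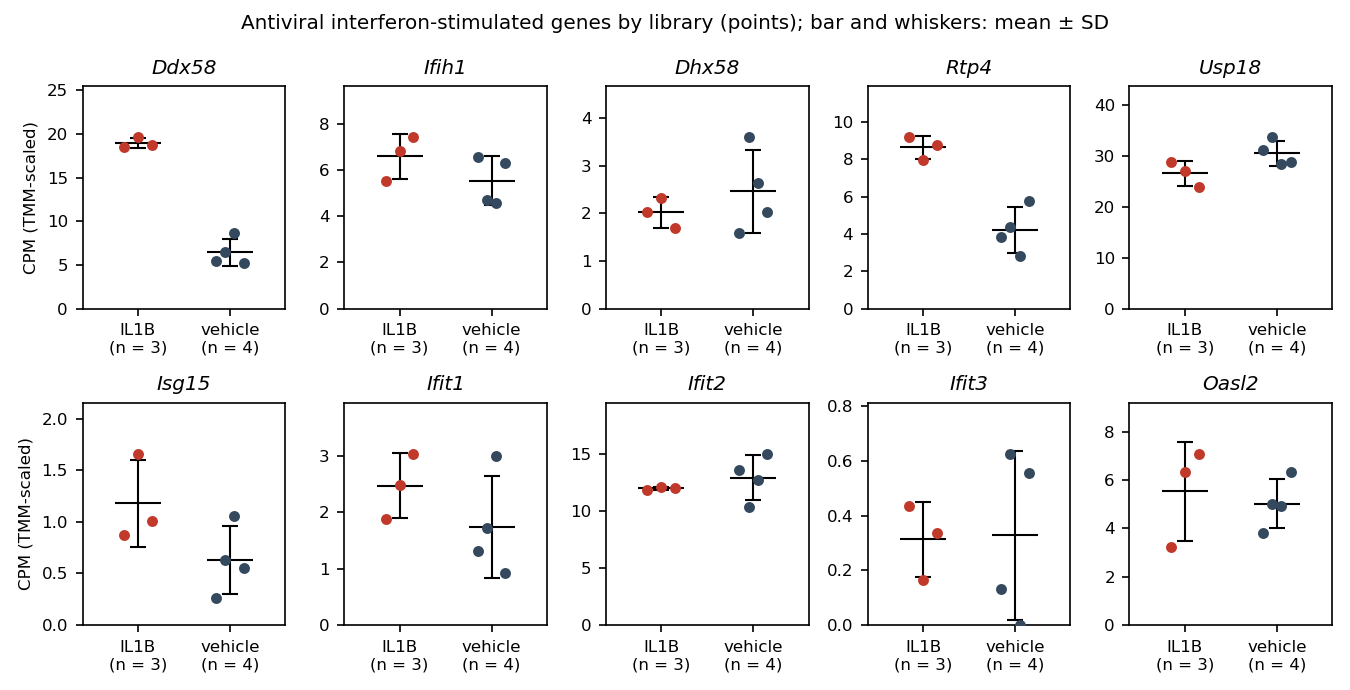
CPM of each of the 10 genes in every library (points; IL1B left, n = 3, vehicle right, n = 4), with the mean and SD; each panel has its own linear axis from 0. Ddx58 and Rtp4 separate fully, at 18.5 to 19.6 against 5.20 to 8.64 CPM and at 7.98 to 9.18 against 2.82 to 5.76 CPM, while the other 8 genes overlap.

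The RNA sensors split. Ddx58 encodes RIG-I, the cytosolic helicase that recognises RNA with a triphosphate end; it lies on chromosome 4 (GRCm38, 40203773 to 40239828, minus strand). Its level was 18.5, 19.6 and 18.7 CPM in the IL1B libraries and 5.40, 6.42, 8.64 and 5.20 CPM in the vehicle libraries. The lowest IL1B library was above the highest vehicle library, the third. The log2 fold change was 1.57 (SE 0.15, 95% interval 1.25 to 1.89, edgeR adjusted p = 2.68e-07), and 1.00% of tested genes had a larger one. These values rest on 356 counts with IL1B and 159 with vehicle.

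Ifih1 (chromosome 2, 62595798 to 62646255, minus strand) encodes MDA5, the sister sensor of long double-stranded RNA. It stood at 5.54, 6.82 and 7.42 CPM with IL1B and at 6.58, 4.70, 4.58 and 6.31 CPM with vehicle, so the groups overlapped. Its log2 fold change was 0.23 (95% interval -0.18 to 0.64, edgeR adjusted p = 0.542), an interval that ends at a 1.56-fold rise. Dhx58 (chromosome 11, 100694884 to 100704271, minus strand) encodes LGP2, a helicase without signalling domains that modulates both sensors. It was low throughout, 1.69 to 2.33 CPM with IL1B and 1.58 to 3.60 CPM with vehicle (log2 fold change -0.27, 95% interval -0.96 to 0.42, edgeR adjusted p = 0.698). An annotated gene on the other strand, Dhx58os, overlaps it, and strand was not stated for the counts.

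The balance among the 3 sensor genes, taken within each library, differed between the groups. Ddx58 took 70.9%, 68.2% and 67.3% of their summed counts in the IL1B libraries and 39.8%, 43.6%, 54.4% and 38.4% in the vehicle libraries. The mean share was 68.8% ± 1.87 with IL1B (SD, n = 3) and 44.1% ± 7.24 with vehicle (SD, n = 4), a difference of 24.8 percentage points. The groups did not overlap, and the two-sided exact permutation p was 0.0571, the smallest that 3 against 4 libraries can give, so a threshold of 0.05 is out of reach. This share was chosen for comparison after the values of Ddx58 were known. Counts are not divided by transcript length here, so a share is not a share of molecules.

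**Figure D2:**
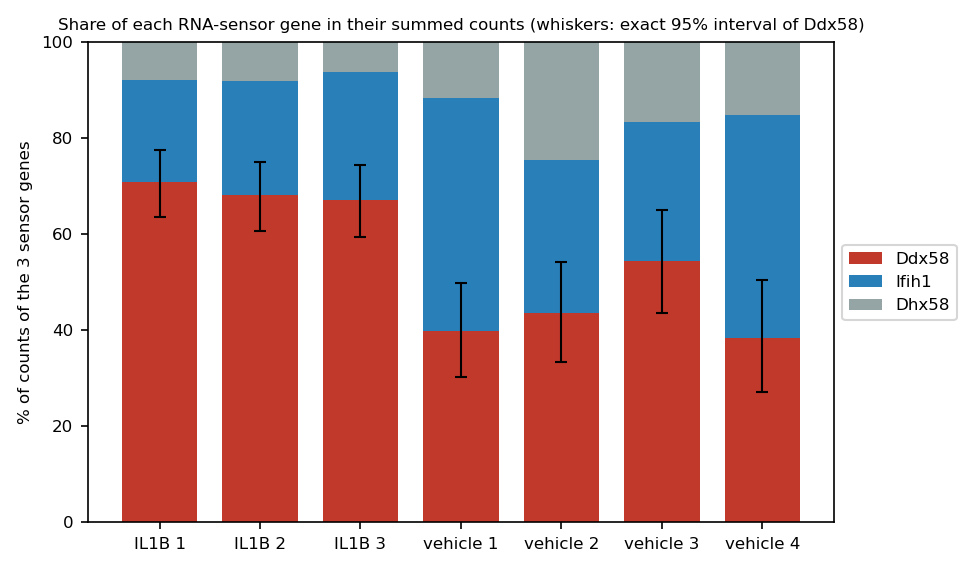
Stacked bars give the percentage of the summed counts of Ddx58, Ifih1 and Dhx58 that each gene took in every library (IL1B left, vehicle right), with the exact 95% binomial interval of the Ddx58 share, which covers counting error only. Ddx58 holds 67.3% to 70.9% with IL1B and 38.4% to 54.4% with vehicle.

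Rtp4 was the other gene that rose. It encodes a receptor transporter protein with a zinc finger domain that is induced by interferon and counters some viruses, and its model spans chromosome 16 (23520291 to 23614222, plus strand). It stood at 9.18, 7.98 and 8.77 CPM with IL1B and at 3.82, 4.38, 2.82 and 5.76 CPM with vehicle, with every IL1B library above every vehicle library. The log2 fold change was 1.05 (SE 0.20, 95% interval 0.63 to 1.47, edgeR adjusted p = 0.00105), exceeded by 1.86% of tested genes. Masp1 overlaps Rtp4 on the other strand and had 1 count over the IL1B and 6 over the vehicle libraries. Gm45338 overlaps it on the same strand and shares 15.9% of its longest transcript at 95% identity or more, so reads there cannot be told apart; Gm45338 was not analysed here. Both Ddx58 and Rtp4 also passed the low-count filter on their vehicle libraries alone, so a fall could have been called.

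Isg15 encodes a ubiquitin-like protein that interferon strongly induces and that is attached to other proteins. It lies on chromosome 4 (156199424 to 156200818, minus strand) and was near the floor: 6, 10 and 6 counts in the IL1B libraries and 2, 4, 6 and 3 counts in the vehicle libraries. It stayed below the low-count filter. Summed over libraries, 22 counts with IL1B against 15 with vehicle gave a ratio of 1.95 after scaling (exact 95% counting interval 0.968 to 4.05), with a two-sided exact permutation p of 0.171 over libraries. A stretch making up 63.8% of its longest transcript also occurs, at 95% identity or more, in the annotated gene AC151275.1, so its counts could have been split.

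Usp18, the protease that removes ISG15 and also dampens the interferon receptor, was the most abundant of the 10. It had 28.8, 27.1 and 24.0 CPM with IL1B and 31.3, 33.7, 28.4 and 28.8 CPM with vehicle, with overlap at the edge of the groups. Its log2 fold change was -0.20 (95% interval -0.40 to 0.0075, edgeR adjusted p = 0.241). The interval's upper end is 1.01-fold, so a rise of the size seen in Ddx58 or Rtp4 lies outside it. Gm44148, annotated on the other strand, overlaps Usp18 and shares 7.1% of its longest transcript at 95% identity or more. Strand was not stated for the counts. The enzymes that attach ISG15 gave 0 of 2 tested genes past the threshold in either direction by edgeR, DESeq2 and limma-voom, with both higher at an unadjusted edgeR p of 0.05. These were the E2 enzyme Ube2l6 (9.56 ± 1.72 CPM with IL1B, 7.23 ± 1.02 CPM with vehicle) and the mouse E3 ligase Herc6 (17.5 ± 0.832 and 14.4 ± 2.58 CPM, in the same order; SD, n = 3 and 4). The E1 enzyme Uba7 stayed below the filter with 9 and 6 counts.

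The IFIT genes encode proteins with tetratricopeptide repeats that bind foreign RNA, and the 3 measured here lie together on chromosome 19. Ifit2 (34550694 to 34576419, plus strand) stood at 11.8, 12.1 and 12.0 CPM with IL1B and at 13.6, 10.3, 12.7 and 15.0 CPM with vehicle, where the IL1B values fall inside the vehicle range. Its log2 fold change was -0.10 (95% interval -0.40 to 0.19, edgeR adjusted p = 0.727), which bounds a rise at 1.14-fold. Ifit1 (34640871 to 34650009, plus strand) had 13, 15 and 18 counts with IL1B and 10, 11, 17 and 5 with vehicle. Its log2 fold change of 0.51 had a wide interval, -0.25 to 1.26 (edgeR adjusted p = 0.456), so a 2.40-fold rise could not be told from none at this depth. Ifit1 passed the filter through the IL1B libraries, since 2 of the 4 vehicle libraries reached the cutoff and 3 were needed.

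Ifit3 (34583531 to 34588731, plus strand) had 3, 1 and 2 counts with IL1B and 1, 4, 0 and 3 with vehicle and stayed below the filter. The ratio of summed counts, 6 against 8, was 0.999 after scaling (exact 95% counting interval 0.286 to 3.28; two-sided exact permutation p = 0.971). It shares 97.4% of its longest transcript at 95% identity or more with its copy Ifit3b, listed as I830012O16Rik, which had 12 counts with IL1B and 13 with vehicle. Reads may have been split between these copies, and both were low in every library.

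Oasl2 (chromosome 5, 114896936 to 114912234, plus strand) encodes a 2′-5′-oligoadenylate synthetase-like protein with ubiquitin-like domains. Its level varied more among the IL1B libraries, at 3.21, 6.32 and 7.08 CPM, than with vehicle, at 3.82, 5.01, 4.94 and 6.31 CPM. The log2 fold change was 0.14 (95% interval -0.38 to 0.67, edgeR adjusted p = 0.805), and without IL1B library 3 its sign turned (-0.076).

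Summed over the 10 genes, the level was 82.3 to 86.6 CPM in the IL1B libraries and 67.8 to 71.5 CPM in the vehicle libraries. Without Ddx58 and Rtp4, the other 8 summed to 54.6, 59.0 and 56.5 CPM with IL1B and to 58.6, 60.3, 57.3 and 60.5 CPM with vehicle. These sums are descriptions, and the pair left out was chosen for its change. Per kilobase of the longest annotated transcript, the order of levels with IL1B was led by Usp18 (15.0 ± 1.40 CPM per kb), Ddx58 (4.89 ± 0.152), Rtp4 (4.65 ± 0.328) and Ifit2 (3.14 ± 0.0436; SD, n = 3). With vehicle it was Usp18 (17.2 ± 1.39), Ifit2 (3.38 ± 0.516), Rtp4 (2.26 ± 0.659) and Ddx58 (1.66 ± 0.407; SD, n = 4). Ddx58 and Rtp4 with IL1B, and Rtp4 and Ddx58 with vehicle, did not differ beyond their spread, nor did Ddx58 and Oasl2 with vehicle (1.66 ± 0.407 and 1.61 ± 0.327). The other genes, Oasl2, Dhx58, Ifih1, Isg15, Ifit1 and Ifit3, ran from 0.180 to 1.77 CPM per kb with IL1B and from 0.188 to 1.61 with vehicle. In vehicle cells Usp18 stood above 66.0% of tested genes on this scale, Ifit2 above 24.1%, and the others above 17.8% or fewer.

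Interferon genes themselves were all but absent. Of 19 type I and III interferon genes in the table, none passed the filter, 12 were at 0 in every library, and together they had 9 counts over the IL1B and 6 over the vehicle libraries. Ifnb1, which encodes interferon beta, had 0 counts in all 7 libraries. A count of 0 allows up to 3 counts, which is 0.157 CPM over the IL1B and 0.121 CPM over the vehicle libraries. No single interferon gene exceeded 2 counts in a library. The Ifna genes are near-identical copies, so counts of single ones are uncertain.

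Of 6 genes of the receptor and its signalling chain, 2 rose and none fell, where 7.76% of tested genes rose and 3.25% fell. Their median log2 fold change was 0.11, against the -0.0087 of all tested genes. DESeq2 and limma-voom each called 2 higher and none lower, and at an unadjusted edgeR p of 0.05 the list had 3 higher and 0 lower. Tyk2, a receptor-associated kinase, was at 26.3 ± 1.37 CPM with IL1B and 16.2 ± 0.529 CPM with vehicle (1.62-fold, edgeR adjusted p = 4.36e-05). The receptor chain Ifnar1 stood at 72.7 ± 2.30 against 59.2 ± 4.34 CPM (1.23-fold, edgeR adjusted p = 0.0111), a call lost without IL1B library 3 (edgeR adjusted p = 0.0644). The kinase gene Jak1 was at 184 ± 12.6 CPM with IL1B and 165 ± 4.75 CPM with vehicle (edgeR adjusted p = 0.137), and passed without IL1B library 2 (0.0490) or without the second library of both groups (0.00725). The second receptor chain, Ifnar2, was at 25.5, 24.8 and 24.6 CPM with IL1B and at 20.3, 25.4, 27.0 and 22.7 CPM with vehicle (edgeR adjusted p = 0.744). The interferon targets Stat2 (32.0 ± 1.26 against 33.3 ± 0.857 CPM) and Irf9 (8.94 ± 2.72 against 10.9 ± 0.441 CPM), which are parts of ISGF3, did not pass (edgeR adjusted p = 0.771 and 0.390; SD, n = 3 and 4).

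**Figure D3:**
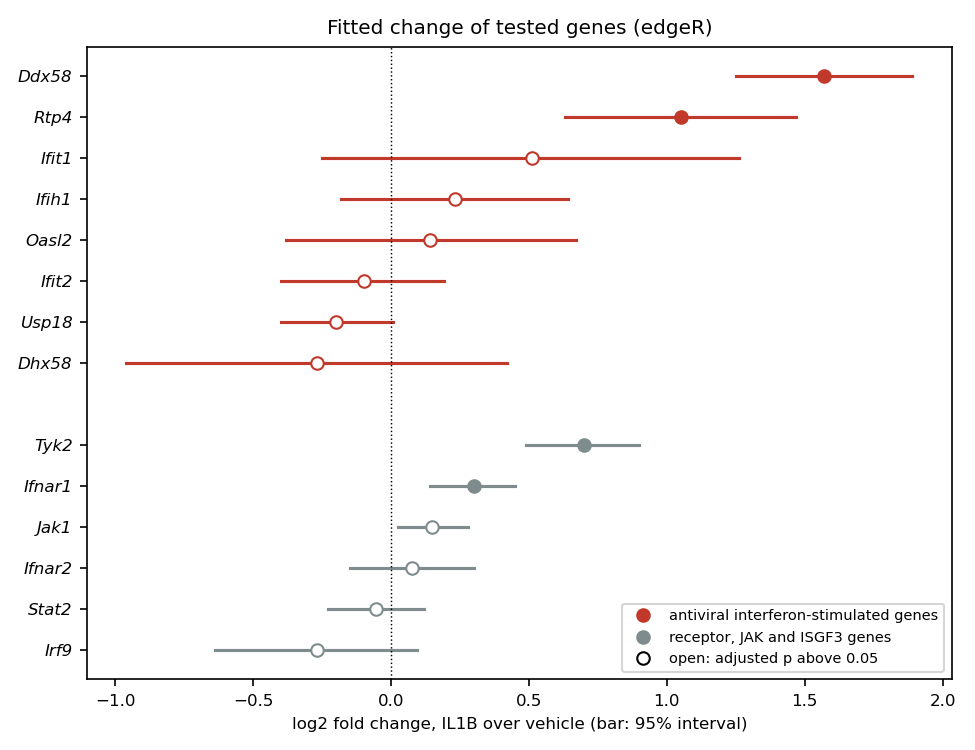
Log2 fold change of IL1B over vehicle with its 95% interval for the 8 tested antiviral interferon-stimulated genes and the 6 receptor, JAK and ISGF3 genes (filled: adjusted p up to 0.05). The intervals of Ddx58 (1.25 to 1.89) and Rtp4 (0.63 to 1.47) lie above 0 and those of the other 6 include it; the wide interval of Ifit1 (-0.25 to 1.26) overlaps both, and those of Ifih1 (to 0.64) and Oasl2 (to 0.67) overlap that of Rtp4.

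Adaptors, kinases and factors of nucleic acid sensing gave 4 higher and 0 lower of 12 tested, with a median log2 fold change of 0.26. Among all tested genes 7.76% rose and 3.25% fell. The list includes the partners of RIG-I as well as Tlr3, its adaptor Ticam1 and cGAS from separate sensing routes. DESeq2 and limma-voom also gave 4 higher and 0 lower. Rnf135 encodes Riplet, the ubiquitin ligase that activates RIG-I, and was at 15.9, 16.5 and 15.7 CPM with IL1B and at 2.76, 3.60, 2.64 and 3.90 CPM with vehicle (4.98-fold, 95% interval 3.93 to 6.31, edgeR adjusted p = 2.99e-09). The adaptor Traf3 rose 2.46-fold, Tank, which binds the kinase TBK1, 1.64-fold, and Tbk1 itself 1.33-fold. Mavs, the adaptor on mitochondria that RIG-I and MDA5 share, was at 7.79 ± 0.447 CPM with IL1B and 8.93 ± 0.826 CPM with vehicle (SD, n = 3 and 4; edgeR adjusted p = 0.459). Irf3 and Irf7, the factors that drive interferon genes, had log2 fold changes of 0.12 and -0.082 (edgeR adjusted p = 0.522 and 0.801), and that of Irf7 turned to 0.042 without IL1B library 3. Trim25, another ubiquitin ligase linked to RIG-I, was at 51.7, 48.9 and 52.6 CPM with IL1B and at 60.0, 55.7, 62.1 and 61.3 CPM with vehicle. The groups did not overlap, and its log2 fold change of -0.23 missed the threshold (edgeR adjusted p = 0.062).

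Other antiviral interferon-stimulated genes were mixed. Of 49 listed, 48 were found, 26 were tested, 5 rose and none fell, with a median log2 fold change of 0.0595; at an unadjusted edgeR p of 0.05, 9 were higher and 2 lower, and DESeq2 and limma-voom each gave 5 higher and 0 lower. Parp14, an ADP-ribosyltransferase, reached 28.8 ± 1.91 CPM with IL1B against 4.68 ± 0.735 CPM with vehicle (6.18-fold, edgeR adjusted p = 2.23e-11). Tor3a rose 2.69-fold, the ubiquitin ligase Dtx3l 2.39-fold, Samd9l 2.10-fold and Lgals3bp 1.18-fold. Rsad2, which encodes viperin, was at 6.33 ± 1.07 against 4.02 ± 0.946 CPM (edgeR adjusted p = 0.0740) and passed with no low-count filter (0.0465) or without IL1B library 1 (0.0413). The tetherin gene Bst2 was at 3.44 ± 0.722 against 3.04 ± 0.733 CPM (edgeR adjusted p = 0.803). The 22 genes below the filter include Mx1, with 0 counts with IL1B and 8 with vehicle, and Mx2, with 17 and 6 counts.

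The NF-kB targets and some of the genes that IRF1 or interferon gamma control held larger changes, though the difference between lists was not tested. These lists were chosen with earlier results of these data known, so their counts and medians are descriptions only. Among all tested genes 7.76% rose and 3.25% fell. Of 17 tested IRF1 and interferon-gamma-type genes 9 rose and none fell (median log2 fold change 0.64); DESeq2 gave 8 and limma-voom 9 higher, each with none lower, as at an unadjusted edgeR p of 0.05. Of these 17 genes 7 did not pass the filter on vehicle libraries alone. Among them were 4 of the 9 that rose (Gbp2, Gbp3, Gbp5 and Gbp6), which passed only through the IL1B libraries. The other 10 gave 5 higher and 0 lower, with a median of 0.37. Of these 5, Irf1 and Cxcl10 rose more than Ddx58. Psmb10 (1.93-fold), Gbp7 (1.57-fold) and Irgm1 (1.3-fold) rose less than Ddx58 and Rtp4. The 8 of the 17 that did not pass ran from 0.912-fold (Ciita) to 1.56-fold (Psmb9). Irf1, a transcription factor gene with a kB match and a GAS core in its promoter window, stood at 162 ± 10.5 CPM with IL1B and 23.5 ± 1.38 CPM with vehicle. Cxcl10, whose promoter is printed above, stood at 136, 100 and 127 CPM against 1.84, 3.60, 1.59 and 3.53 CPM. All 17 tested NF-kB target genes rose, with a median log2 fold change of 3.94, but 5 of them (Birc3, Icam1, Cxcl1, Cxcl2 and Ccl2) passed the filter only through the IL1B libraries and could not have been called lower. Of the 12 that passed on vehicle libraries alone, 12 rose, with a median of 3.46. Among them Nfkbia, which encodes the NF-kB inhibitor IkBa and has a kB match in its promoter window, was at 479 ± 18.4 CPM with IL1B and 31.1 ± 1.49 CPM with vehicle. Set beside these, the largest change among the 10 antiviral genes, that of Ddx58, was 2.97-fold.

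**Figure D4:**
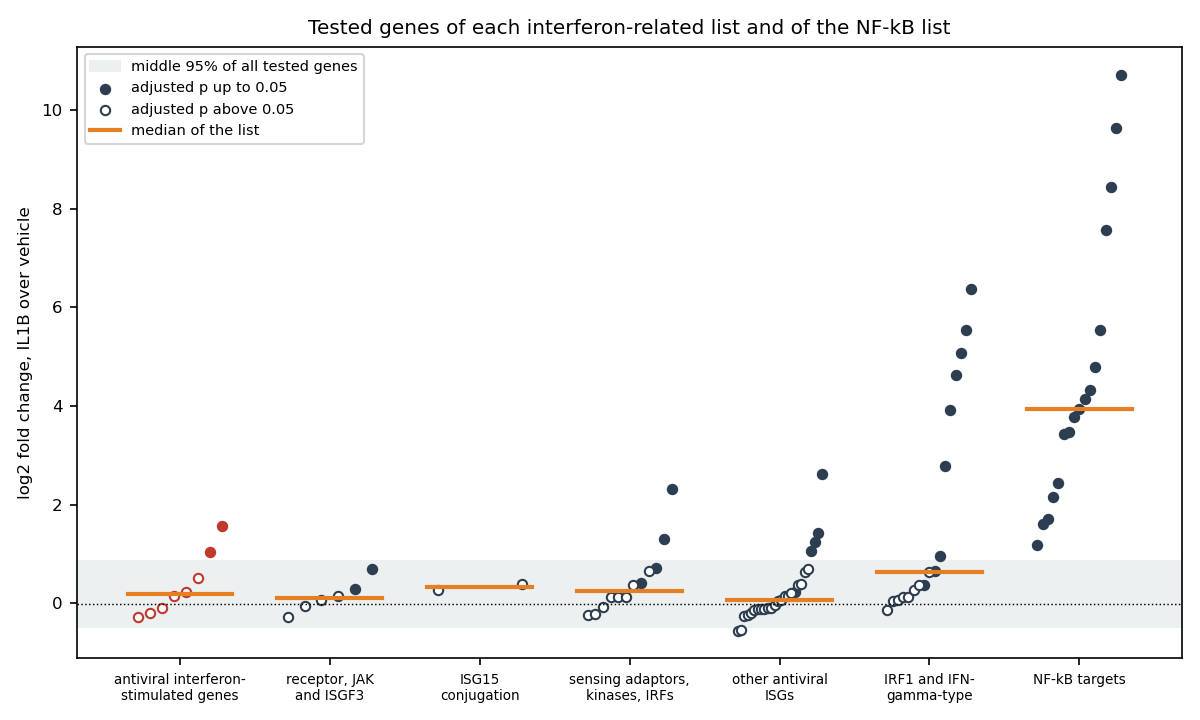
Log2 fold change of IL1B over vehicle for every tested gene of each list (points, filled where the adjusted p was up to 0.05), with the list's median (bar) and the middle 95% of all tested genes (grey band, -0.48 to 0.86). Ddx58 and Rtp4 lie above the band and the other 6 tested antiviral genes inside it. The NF-kB targets have a median of 3.94, or 3.46 over the 12 that passed the filter on vehicle libraries alone. The other 5 passed only through the IL1B libraries and could not have been called lower.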

How the data were processed

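RNA of 7 Beta-TC6 libraries was measured by polyA sequencing. The authors deposited raw counts per gene symbol; per the submitters' processing notes the build was mm10, and the tools named without a role include STAR and RSEM, HOMER, and R 4.1.0. The handling of strand and of reads matching several genes is not stated there. Vehicle columns match the sample titles; the IL1B columns carry the numbers 1, 2 and 3 and the titles 1, 3 and 4, so these columns were assigned to the group only and are called by the table's numbers. Whether replicates are separate cultures is not stated, and p-values reflect only how these libraries spread, which may be technical.

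Counts were analysed with edgeR 4.0.16 in R 4.3.3: TMM scaling, filterByExpr, quasi-likelihood F test (3 IL1B, 4 vehicle libraries), Benjamini-Hochberg adjustment over the 12480 tested genes. The script was tested on simulated data, where the share of false calls lay somewhat above the nominal level for edgeR and limma-voom and below it for DESeq2. The SE of a log2 fold change is its size divided by the root of F. CPM divide by a library's total over tested genes times its TMM factor. Genes under the filter got ratios of summed counts with exact 95% intervals and exact permutation tests (SciPy 1.17.1). These exact intervals, those of the Ddx58 share and the floor of 3 counts cover counting error only. The intervals of log2 fold changes come from the F test and include the spread between libraries. Alternatives were other scalings, filters, DESeq2 1.42.0, limma-voom (limma 3.58.1) and leaving out libraries. Gene models and transcripts came from GENCODE M21 (GRCm38, the assembly of mm10), copies from blastn 2.17.0, and promoters from RefSeq.

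The members and the 12 gene lists were chosen with earlier results of these data known. Of 173 list symbols 172 were found, 12 by an older symbol. The text names the 10 members and 20 genes fixed by name. It also names up to 4 genes per list with the smallest adjusted p among those past the threshold. Genes of the marker lists other than the top ones, and the genes named for their filter or overlap, were named after their values were seen. So were Tlr3, Ticam1, cGAS, Trim25, Lgals3bp, Psmb10, Gbp7, Irgm1, Ciita and Psmb9. A further gene considered for the receptor list is not reported here, and the counts leave it out.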

Additional observations from a re-analysis of the deposited data

How the results depend on the processing

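Ddx58 and Rtp4 passed upward, and no other member passed, under all 15 alternatives run: DESeq2, limma-voom, scaling by RLE, upper quartile or totals, a filter of at least 1 CPM in 3 libraries or none, each library left out, and both second libraries left out. The log2 fold change ran from 1.48 to 1.73 for Ddx58 (adjusted p up to 5.11e-06) and from 0.92 to 1.22 for Rtp4 (adjusted p up to 0.00837), and the lowest adjusted p of another tested member was 0.148. Of 120 values of tested members 1 turned sign, Oasl2 without IL1B library 3 (-0.0757 to 0.44 with 1 library left out); among other named genes 2 did, Ifnar2 without vehicle library 1 (-0.00358 to 0.14) and Irf7 without IL1B library 3 (-0.15 to 0.0423). With no filter Isg15 and Ifit3 stayed uncalled. The table's count of lower genes was 676 without both second libraries, and the counts left with 1 library out were 769 to 1128 higher and 252 to 589 lower (lowest without IL1B library 3). In the receptor list 1 to 3 genes rose with 1 library left out, 1 without IL1B library 3. Trim25 gave 1 lower gene in the sensing list with upper-quartile and total-count scaling and without both second libraries, and 0 to 1 with 1 library left out. Beta-cell markers gave 3 higher and 5 lower without both second libraries, and 0 to 3 higher with 1 left out. Leukocyte markers (Cd74) and stromal markers (Pecam1) gave 1 higher with no filter or the 1 CPM filter, and 0 to 1 with 1 library left out. Other endocrine markers gave 2 lower with no filter, 1 with total-count scaling, the 1 CPM filter or without both second libraries, and 0 to 1 with 1 left out. The causes were not tested. With the window cut to 100 bases before and 50 after the start, the ISRE core was in 1.69%, the GAS core in 4.55% and the kB consensus in 2.48% of genes; of the 7 members with a promoter, 4 held the ISRE core (not Ifit3), 0 the GAS core (not Ifit2) and 0 the kB consensus. No paired analysis was possible because the IL1B columns carry numbers that differ from those of the sample titles. Depth limits Isg15, Ifit1, Ifit3 and Dhx58, which had 6 to 46 counts over the IL1B libraries.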
